A study of Mus musculus with 10 samples.

Results

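Transcripts of cytokines and growth factors that could act on the bone marrow niche were read in mature B cells, as levels of 10 named genes: Tgfb1, Il10, Il15, Il16, Il18, Csf1, Kitl, Vegfa, Vegfb and Flt3l. The table of 14450 genes gave values for 8 of them, and Il10 and Il15 were not analysed here. RNA was sequenced from B cells of Chat-GFP mice, sorted from bone marrow by flow cytometry into 5 libraries of Chat+ and 5 libraries of Chat- mature B cells. Chat encodes choline acetyltransferase, which makes acetylcholine, and all libraries of both groups came from this reporter strain at steady state. The labels give neither the age of the mice nor how mature cells were gated, nor do they tie each library to an animal of its own. The p-values therefore reflect the scatter of these libraries, which may be technical. The comparison asks whether B cells sorted as Chat+ carry more or less transcript of each niche signal than B cells sorted as Chat-.

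Cytokines of the marrow niche control how blood stem cells rest, divide and mature, and how vessels, stroma and macrophages around them behave. Transforming growth factor beta 1, the product of Tgfb1, is secreted in a latent form and has to be released before it can hold blood stem cells in quiescence. Kit ligand (Kitl), FLT3 ligand (Flt3l) and colony stimulating factor 1 (Csf1) act on receptor tyrosine kinases of progenitors, dendritic cell precursors and macrophages, while the vascular endothelial growth factors (Vegfa, Vegfb) act on endothelial cells. Interleukin 16 (Il16) is cut from a large precursor and attracts CD4-bearing cells, and interleukin 18 (Il18) is cut by inflammasome caspases before it leaves the cell.

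The genes differ in the DNA before their start sites, shown here for the vascular pair, whose levels diverged in 1 library, and for Il18, whose level followed that of Vegfa between libraries. Each run is the 250 bases before the RefSeq start on GRCm38.p6, written 5′ to 3′ on the strand of the gene, with capitals marking matches to the GC box GGGCGG or its reverse complement. The window of Vegfa lies at chr17:46032378-46032627 on the minus strand, that of Vegfb at chr19:6987652-6987901 on the minus strand and that of Il18 at chr9:50554450-50554699 on the plus strand.
Vegfa: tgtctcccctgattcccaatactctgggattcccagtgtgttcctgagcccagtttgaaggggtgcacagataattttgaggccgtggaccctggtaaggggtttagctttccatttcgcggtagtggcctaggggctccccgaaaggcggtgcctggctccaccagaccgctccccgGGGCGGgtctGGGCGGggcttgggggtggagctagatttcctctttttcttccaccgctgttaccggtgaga
Vegfb: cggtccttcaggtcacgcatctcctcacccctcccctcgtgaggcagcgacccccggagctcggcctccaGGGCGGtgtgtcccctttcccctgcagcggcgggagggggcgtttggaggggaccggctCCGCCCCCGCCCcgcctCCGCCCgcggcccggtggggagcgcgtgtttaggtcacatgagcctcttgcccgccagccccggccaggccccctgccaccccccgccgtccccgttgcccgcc
Il18: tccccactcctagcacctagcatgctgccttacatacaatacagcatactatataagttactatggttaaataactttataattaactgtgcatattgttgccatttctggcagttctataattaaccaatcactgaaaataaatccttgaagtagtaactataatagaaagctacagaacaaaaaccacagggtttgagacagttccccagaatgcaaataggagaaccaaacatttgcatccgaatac

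Of 11 such windows of the 8 genes, 7 held a GC box, against 32.7% of the 32851 windows in the RefSeq table. Il16 and Vegfa gave more than 1 window each, so the windows are not independent and the count is a description only. The Kitl window and an Il16 window overlap an exon of their own gene. The Vegfb window held 4 matches and the first Vegfa window 2, with GC contents of 76.4% and 59.2%. The Tgfb1 window held 5 matches and 21 CpG dinucleotides, where the median over all windows was 6. The Il18 window had 35.6% GC, 1 CpG and 0 GC boxes, and the 3 windows of Il16 also held 0. The core of the hypoxia element, ACGTG on either strand, occurred in 1 of the 11 windows, an internal start of Vegfa that overlaps a Vegfa exon, and in 16.6% of all windows. Overlapping matches were each counted. A match describes the letters in the window only, and its absence says nothing about the factor.

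The sort and the libraries were checked first. Chat averaged 70.6 ± 28.9 CPM (counts per 1000000 counts) in Chat+ against 7.5 ± 7.25 CPM in Chat- (n = 5 each, SD). The sorted gene itself missed the adjusted threshold (limma fold 12.5, adjusted p = 0.0872). Chat transcript was read in every Chat- library, at 1.17 to 19.7 CPM, against 31.1 to 111 CPM in Chat+. All 8 listed B cell markers were measured, with a summed level of 10045 to 10534 in Chat+ against 10299 to 10900 CPM in Chat-. Of 11 T and NK cell markers, 1 was measured, Cd4, at 0 to 1.27 CPM. The library Chat- replicate 4 stood apart, with 11.9% of its CPM from mitochondrial transcripts against 2.27% to 3.85% in the others. Its monocyte and macrophage markers summed to 239 CPM and its stromal markers to 382 CPM, each above every other library. It was the highest library for 22.1% and the lowest for 31.6% of all genes. For the cytokines, the fold is given with and without this library.

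Across the 8 measured cytokines, 0 passed the test in either direction (limma over all 14450 genes, Benjamini-Hochberg adjustment, adjusted p = 0.999 for each), where 0.00692% of all genes passed. The limma log2 differences ran from -0.44 for Csf1 to 0.56 for Kitl, 4 above and 4 below 0, with a median of 0.01 beside 0.04 over all genes. At an unadjusted p under 0.05 the count was also 0 of 8, against 4.51% of all genes. In 0 of 8 genes were the groups free of overlap, against 1.43% of all genes (1.12% with Chat+ above and 0.304% with Chat+ below). Without Chat- replicate 4 the share of all genes was 3.29%. A p that misses the threshold does not show equal levels, so the interval of each difference is given. In these sorted pools, fewer cells that make a transcript and less transcript per cell cannot be told apart.

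**Figure D1:**
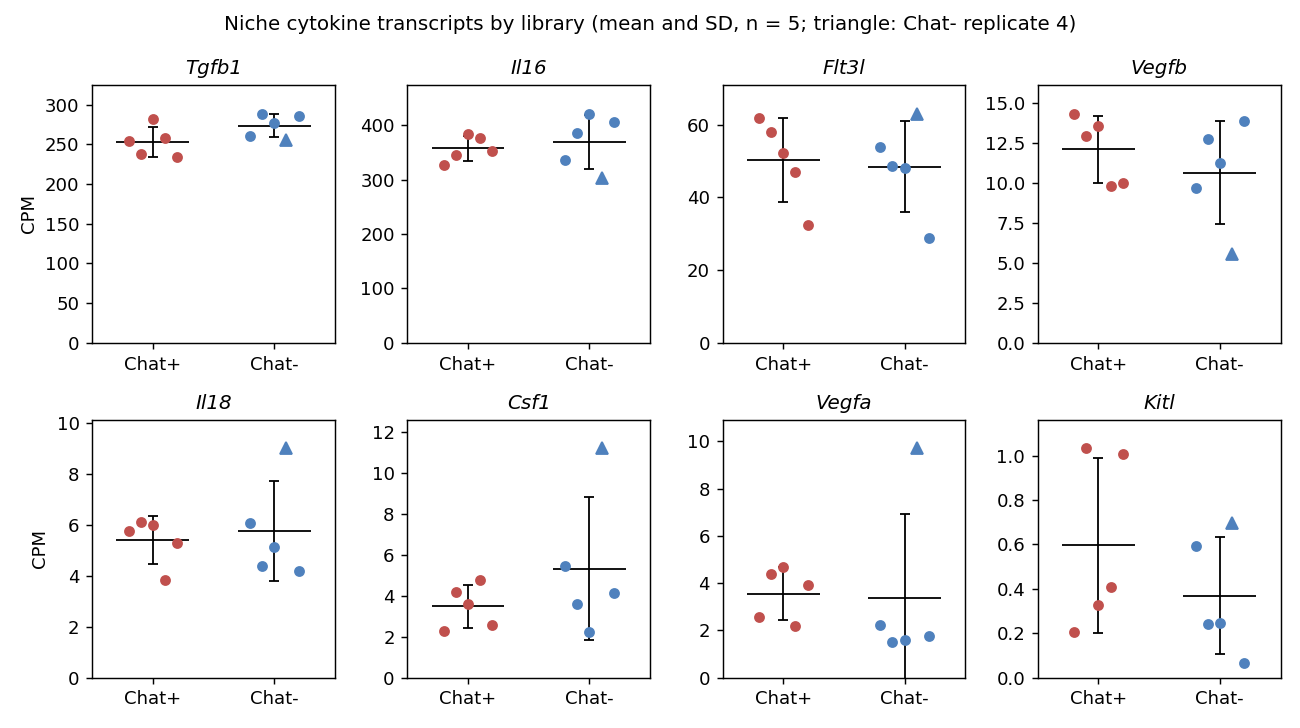
Level of each cytokine transcript in CPM (linear axes from 0) in the 5 Chat+ and 5 Chat- libraries, with the mean (line) and SD (bar, drawn down to 0 at most). The groups overlap for all 8 genes, and the triangle, Chat- replicate 4, is the highest library for Flt3l, Il18, Csf1 and Vegfa and the lowest for Il16 and Vegfb, beside 22.1% and 31.6% of all genes.

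Per length, Tgfb1 and Il16 were the most abundant of the 8 transcripts and Kitl the least. Levels of different genes are compared only as CPM per kilobase of the joined exons. Tgfb1 had 52.2 ± 3.83 CPM per kilobase and Il16 46.2 ± 4.72 (SD over 10 libraries), and their ranges over libraries overlapped. Flt3l followed at 12.7 ± 2.94 CPM per kilobase, below every value of Il16. Vegfb at 7.09 ± 1.67 overlapped Flt3l, and Il18 at 5.42 ± 1.42 CPM per kilobase overlapped Vegfb. Csf1, at 0.833 ± 0.495, and Vegfa, at 0.806 ± 0.582, overlapped each other, and both lay below every value of Il18. Kitl had 0.0816 ± 0.0572 CPM per kilobase, below every value of Vegfa. The order was the same with the length of the longest transcript, but not every overlap held. By that length Tgfb1, at 91.1 to 112 CPM per kilobase, lay above every value of Il16, at 57.4 to 80.0. Likewise Flt3l, at 11.6 to 25.4, lay above every value of Vegfb, at 4.35 to 11.2 CPM per kilobase.

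**Figure D2:**
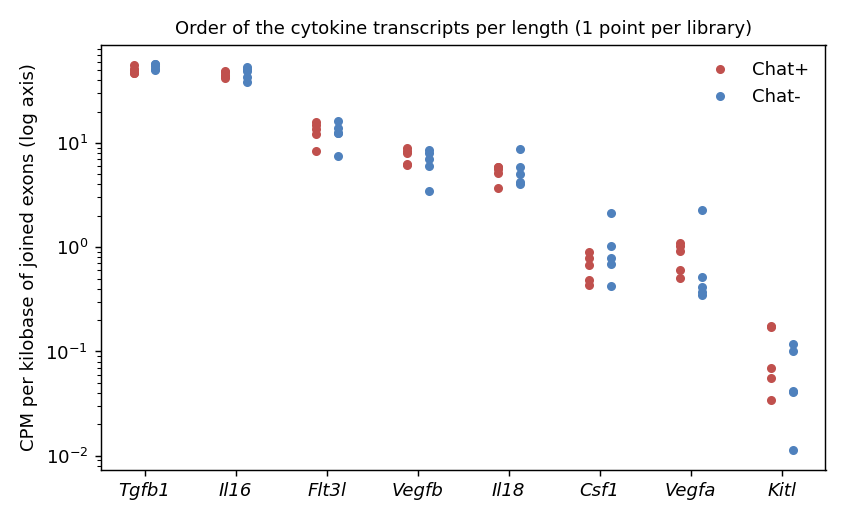
CPM per kilobase of joined exons (log axis) for each gene, 1 point per library, Chat+ and Chat- side by side. Tgfb1 and Il16 form the top pair at means of 52.2 and 46.2, Csf1 and Vegfa lie near 0.8, and Kitl lies lowest at a mean of 0.0816.

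Tgfb1, the latent quiescence factor, was abundant in both groups, which overlapped. In Chat+ it had 254, 238, 283, 258 and 234 CPM in replicates 1 to 5, and in Chat- 261, 289, 276, 255 and 286 CPM. The Chat- libraries tended to lie higher, but the ranges shared the stretch from 255 to 283 CPM. The means were 253 ± 19.2 and 273 ± 14.8 CPM (SD, n = 5), a fold of 0.925 with a 95% confidence interval of 0.814 to 1.05 (limma log2 difference -0.11 ± 0.09, SE), and 0.91 without Chat- replicate 4. Tgfb1 (ENSMUSG00000002603, protein coding) is found at 25687002 to 25705077 of chromosome 7, plus strand (GRCm38, GENCODE M21), and other genes share 1.79% of its stretches of 31 bases.

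The genes that release and read this factor were tested as a list of 25, all measured. Of these 0 passed over all genes, with 14 above and 11 below 0 and a median log2 difference of 0.04, equal to the median of all genes at this rounding. Nrros, which tethers latent TGF-beta 1 on the cell surface of myeloid cells, had 148 ± 12.7 in Chat+ against 149 ± 16.3 CPM in Chat- (SD, n = 5). The receptor chains Tgfbr2 and Tgfbr1 had 333 ± 42.5 against 357 ± 61.5 CPM and 54.3 ± 7.17 against 51.2 ± 4.79 CPM. Skil, a nuclear repressor of the SMAD proteins that relay the signal, had 129 ± 9.52 against 133 ± 14.3 CPM. The groups overlapped for the ligand, its surface tether and both receptor chains.

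The smallest p in that list belonged to Smad7, an inhibitor that the pathway itself induces, and to Ltbp2, a latent TGF-beta binding protein family member of the extracellular matrix. Smad7 had 43.0 ± 9.36 in Chat+ against 54.2 ± 4.02 CPM in Chat- (SD, n = 5; limma log2 difference -0.35 ± 0.14, SE, unadjusted p = 0.03, adjusted p = 0.999). In 4 of 5 Chat+ libraries it was at 31.7 to 42.8 CPM, below every Chat- library, while Chat+ replicate 4, at 57.8 CPM, was among the highest. Ltbp2 had 1.35 ± 0.557 against 0.597 ± 0.76 CPM, with the Chat- mean carried by replicate 4 at 1.95 CPM, where the other Chat- libraries had 0.158 to 0.324 CPM. Without that library its fold was 3.71 (limma adjusted p = 0.273), and at Chat- levels this low the counting error is large. The stromal marker sum, given below, was also highest in that library, and its part in the Ltbp2 level was not tested.

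Il16, the CD4 ligand precursor, was abundant in every library and varied more in Chat- than in Chat+. Its levels were 327, 344, 384, 377 and 353 CPM in Chat+ replicates 1 to 5 and 336, 385, 421, 302 and 405 CPM in Chat-. Chat- held both the highest library, replicate 3, and the lowest, replicate 4, and enclosed the whole Chat+ range. The means were 357 ± 23.6 and 370 ± 49.5 CPM (SD, n = 5), a fold of 0.972 with a 95% confidence interval of 0.826 to 1.14 (limma), and 0.926 without Chat- replicate 4. Il16 (ENSMUSG00000001741) is found at 83642825 to 83745726 of chromosome 7, minus strand, and has 6 annotated transcripts. Its level sums over them, so the long and short precursors were not told apart. Of its exon bases, 1202 overlap exons of Stard5 on the opposite strand, and the strand setting used in counting is not given in the sources used here. Stard5 had 38.5 ± 8.26 in Chat+ against 39.6 ± 6.23 CPM in Chat-.

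In the IL-16 list, 0 genes passed. Cd4, the receptor, was near the floor at 0.6 ± 0.589 in Chat+ against 0.466 ± 0.41 CPM in Chat- (SD, n = 5). Cd9, a tetraspanin reported as another IL-16 receptor and carried by innate-like B cells, had 22.9, 37.6, 29.1, 20.1 and 30.3 in Chat+ against 18.7, 10.7, 13.6, 19.8 and 16.3 CPM in Chat-. Every Chat+ library lay above every Chat- library, which held for 1.12% of all genes, yet Cd9 did not pass over all genes (limma log2 difference 0.82 ± 0.21, SE, adjusted p = 0.422).

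Flt3l, which drives dendritic cell and lymphoid precursors, came next after Il16 per length. Chat+ replicates 1 to 5 had 61.9, 58.1, 52.3, 47.0 and 32.4 CPM, and Chat- replicates had 53.8, 48.7, 48.0, 63.1 and 28.9 CPM. Replicate 5 was the lowest library of each group. The means were 50.3 ± 11.5 and 48.5 ± 12.5 CPM (SD, n = 5), a fold of 1.05 with a 95% confidence interval of 0.752 to 1.45 (limma), and 1.13 without Chat- replicate 4. Flt3l (ENSMUSG00000110206) is found at 45129788 to 45136432 of chromosome 7, minus strand, and other genes share 20.1% of its stretches of 31 bases, mostly the overlapping same-strand gene Gm45713, so the level is uncertain, by an amount that was not tested. Its receptor gene Flt3 had 1.32 ± 0.755 in Chat+ against 1.54 ± 0.488 CPM in Chat-.

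Kitl, the ligand that maintains blood stem cells, was near the limit of detection. Chat+ replicates 1 to 5 had 0.204, 1.03, 0.327, 0.408 and 1.01 CPM, and Chat- replicates had 0.592, 0.243, 0.247, 0.697 and 0.0665 CPM. These values stand for an estimated 2 to 30 reads per library, so counting error alone is large. The fold was 1.48 with a 95% confidence interval of 0.554 to 3.94 (limma), and 1.74 without Chat- replicate 4. Differences of any size within that interval are compatible with these values. Kitl (ENSMUSG00000019966) is found at 100015630 to 100100416 of chromosome 10, plus strand.

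Its receptor gene Kit was also low, at 0.613, 1.72, 2.04, 0.612 and 0.543 in Chat+ against 0.237, 0.324, 0.0352, 1.11 and 0.0998 CPM in Chat-. Chat- replicate 4 reached into the Chat+ range and the other 4 Chat- libraries lay below it. Without Chat- replicate 4 the groups were free of overlap for 3.29% of all genes. The limma log2 difference of Kit was 1.56 ± 0.69 (SE, unadjusted p = 0.042, adjusted p = 0.999). Its fold was 2.95 over all libraries and 4.01 without that library (limma adjusted p = 0.38). Stromal and macrophage marker sums, given below, were also higher on average in Chat+ without that library, and their part was not tested. The Chat- levels of Kit were about as low as those of Kitl, so counting error is large here too. In the list of 7 measured genes for receptors and shedding of CSF1, Kit ligand and FLT3 ligand, 0 passed, with 2 above and 5 below 0. The proteases Adam10 and Adam17, which shed membrane-bound ligands, had 145 ± 25.3 against 150 ± 32.5 CPM and 128 ± 12 against 120 ± 6.63 CPM (SD, n = 5). Rhbdf2, a partner that ADAM17 needs to mature, had 115 ± 9.92 against 119 ± 7.49 CPM.

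Csf1, the macrophage growth factor, had its highest level in 1 Chat- library. Chat+ replicates 1 to 5 had 2.29, 4.17, 3.60, 4.77 and 2.56 CPM, and Chat- replicates had 5.44, 3.61, 2.22, 11.2 and 4.13 CPM. The other 4 Chat- libraries and the Chat+ libraries covered much the same range. The fold was 0.736 with a 95% confidence interval of 0.394 to 1.37 over all libraries and 0.916 without Chat- replicate 4 (limma, adjusted p = 0.999 and 0.97). Csf1r, its receptor and a defining macrophage gene, had 26.8 CPM in Chat- replicate 4 and 0.775 to 8.13 CPM elsewhere, with a limma log2 difference of -0.35 over all libraries and 0.37 without that library (adjusted p = 0.999 and 0.937). Csf1 (ENSMUSG00000014599) is found at 107741048 to 107760469 of chromosome 3, minus strand.

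**Figure D3:**
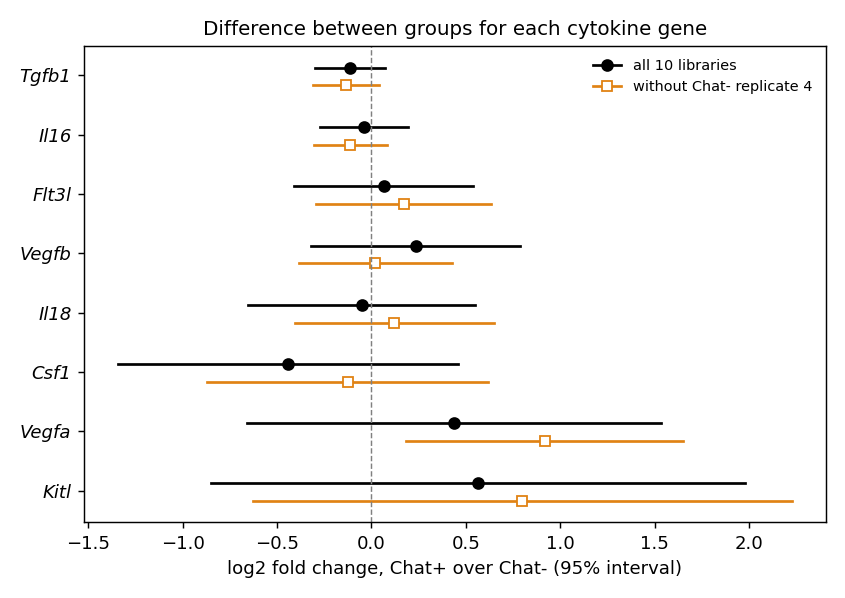
Limma log2 fold change of Chat+ over Chat- for each gene with its 95% confidence interval, over all 10 libraries (black) and without Chat- replicate 4 (orange). All intervals include 0 except that of Vegfa without that library, 0.18 to 1.65, and the intervals of Tgfb1 and Il16 are the narrowest.

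Vegfa, the main growth factor of vessels, overlapped between the groups, and Chat- held both the highest and the lowest library. Chat+ replicates 1 to 5 had 2.58, 4.41, 4.70, 2.17 and 3.91 CPM, and Chat- replicates had 2.21, 1.5, 1.59, 9.71 and 1.76 CPM. The highest library of all was Chat- replicate 4. Over all libraries the means were 3.55 ± 1.12 and 3.36 ± 3.56 CPM (SD, n = 5), a fold of 1.35 with a 95% confidence interval of 0.634 to 2.89 (limma, adjusted p = 0.999). Without Chat- replicate 4 the Chat- mean was 1.77 ± 0.316 CPM (SD, n = 4) and the fold 1.89 (limma log2 difference 0.92, 95% confidence interval 0.18 to 1.65). That difference did not pass over all genes (limma unadjusted p = 0.018, adjusted p = 0.534), and 7.32% of all genes had an unadjusted p under 0.05 in the same fit. Vegfa (ENSMUSG00000023951) is found at 46016993 to 46032369 of chromosome 17, minus strand.

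Markers of stromal cells and macrophages moved with Vegfa from library to library. The summed CPM of 10 measured stromal markers was 64.2, 145, 152, 40.5 and 136 in Chat+ replicates 1 to 5 and 39.3, 47.2, 33.4, 382 and 34.4 in Chat-. That of 12 monocyte and macrophage markers was 73.5, 108, 121, 69.6 and 106 in Chat+ and 60.0, 66.0, 46.9, 239 and 57.9 in Chat-. The 4 libraries with the most Vegfa, Chat- replicate 4 and Chat+ replicates 2, 3 and 5, were also the 4 with the highest sum of either list. Of the stromal markers 0 of 10 were at 0 in every library, and Col1a1 was the highest at a mean of 29.7 CPM. Of the macrophage markers 0 of 12 were at 0 in every library, and Lyz2 was the highest at 33.6 CPM. The part of these cells in the Vegfa level was not tested.

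**Figure D4:**
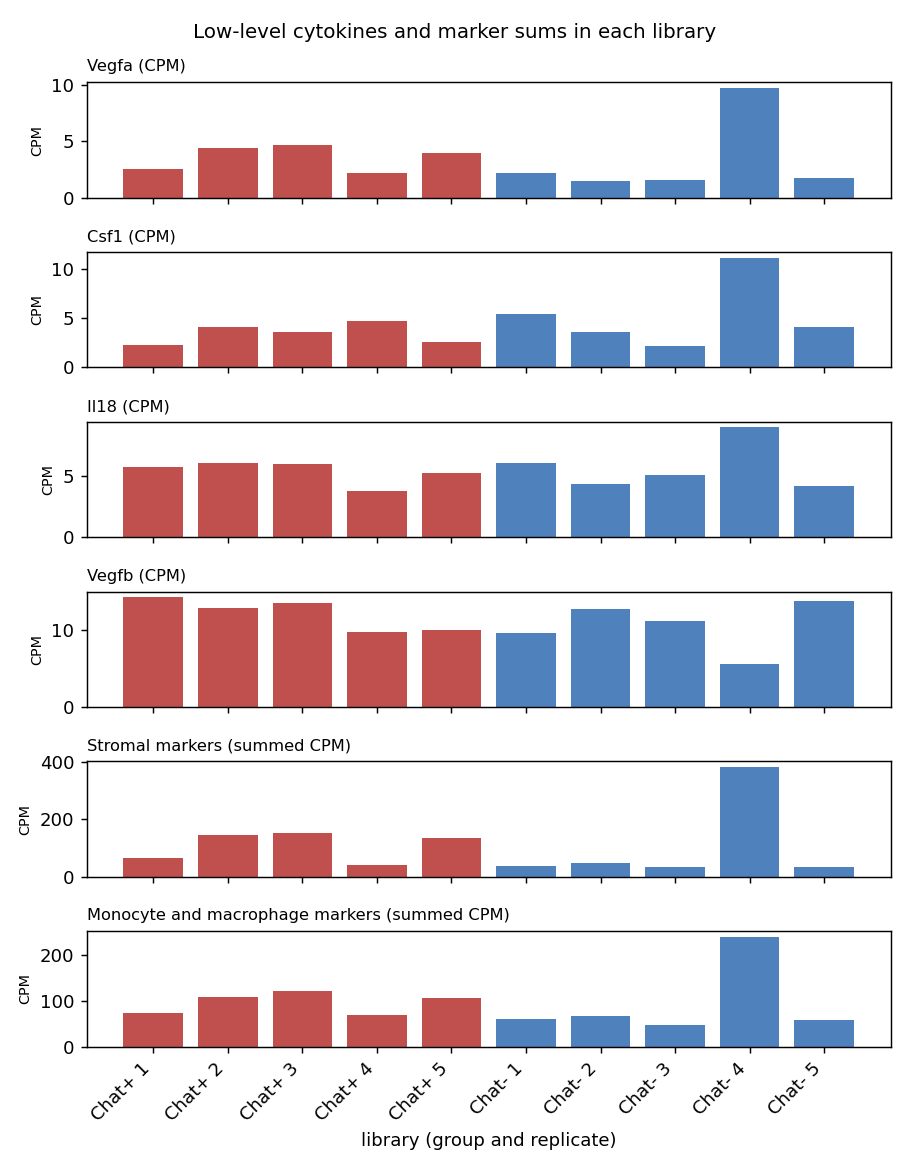
CPM of Vegfa, Csf1, Il18 and Vegfb and summed CPM of the stromal and the monocyte and macrophage marker lists in each library (bars from 0; red Chat+, blue Chat-). Chat- replicate 4 has the tallest bar in every panel but that of Vegfb, where it has the shortest at 5.57 CPM.

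Neither marker sum passed the test over all libraries (exact two-sided permutation p = 0.99 for stromal and 0.98 for macrophage markers, adjusted p = 1 over 11 marker lists). Without Chat- replicate 4, both sums were higher on average in Chat+ (exact permutation p = 0.063 and 0.032, adjusted p = 0.14 each). Over the 11 marker lists, 0 passed after adjustment, and a single list could not have, since the smallest exact p of this design gives an adjusted p of 0.087. The plasma cell sum was 519 ± 121 in Chat+ against 395 ± 33.3 CPM in Chat- (SD, n = 5; exact permutation p = 0.04, adjusted p = 0.22). The mast cell and progenitor sum, of which Ly6a, also carried by B cells, made up the most, was 297 ± 32.3 against 218 ± 22.7 CPM (exact permutation p = 0.0079, the smallest the design allows, adjusted p = 0.087). By the mean of log2 values in place of the sum, the exact permutation p was 0.59 for that list and 0.0079 for the plasma cell list. Of the endothelial markers 3 of 11 were measured, and Pecam1, also a B cell gene, had a mean of 253 CPM. The remaining sums, in CPM, averaged 69.4 against 73.3 for neutrophil, 295 against 279 for dendritic cell, 719 against 759 for erythroid and 4.3 against 5.59 for megakaryocyte markers. The highest gene was Cd79a (2108 CPM) of the B cell, Mzb1 (157 CPM) of the plasma cell and S100a9 (20.5 CPM) of the neutrophil list. It was Tcf4 (255 CPM) of the dendritic cell, Hbb-bs (283 CPM) of the erythroid and Itga2b (1.9 CPM) of the megakaryocyte list. Tcf4 made up most of the dendritic cell sum. How far any of these sums came from the cells they are named for was not tested.

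Vegfb, the relative of VEGF-A that signals through FLT1, was the more abundant of the VEGF pair per length, at the means of CPM per kilobase given above. Chat+ replicates 1 to 5 had 14.3, 12.9, 13.5, 9.79 and 10 CPM, and Chat- replicates had 9.70, 12.8, 11.3, 5.57 and 13.8 CPM. Chat- replicate 4 was the lowest, the reverse of its place for Vegfa. The fold was 1.18 with a 95% confidence interval of 0.8 to 1.73 over all libraries and 1.01 without that library (limma, adjusted p = 0.999 and 0.99). Vegfb (ENSMUSG00000024962) is found at 6982473 to 6987651 of chromosome 19, minus strand.

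The share of Vegfa in the summed CPM of both transcripts set the pair against each other within a library. The share was not corrected for length, with joined exons of 4.285 kilobases for Vegfa and 1.605 for Vegfb. It compares libraries and does not tell which transcript is more abundant. It was 15.3%, 25.5%, 25.8%, 18.1% and 28.1% in Chat+ replicates 1 to 5 and 18.6%, 10.5%, 12.4%, 63.5% and 11.3% in Chat-. The means were 22.5% ± 5.54 and 23.2% ± 22.7 (SD, n = 5), a difference smaller than the spread between libraries (exact two-sided permutation p = 0.98). Without Chat- replicate 4 the direction turned, with a Chat- mean of 13.2% ± 3.67 (SD, n = 4). The Chat+ share was then 9.36 percentage points higher (exact permutation p = 0.048, unadjusted). The library left out was the one with the outlying share, so that p only describes the remaining libraries. The stromal and macrophage sums were higher in Chat+ in the same set of libraries, as given above, and their part was not tested.

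Of the VEGF partners, 9 of 14 were measured and 0 passed, with 6 above and 3 below 0. Hif1a and Arnt, the subunits of the hypoxia factor HIF-1, which drives Vegfa, had 111 ± 19.9 against 112 ± 32.1 CPM and 85.5 ± 8.34 against 89.0 ± 2.77 CPM (SD, n = 5). Egln1, the oxygen sensor that marks HIF-1 alpha for breakdown, had 43.1 ± 2.02 against 41.6 ± 5.48 CPM. Nrp2, a VEGF and semaphorin coreceptor, had 12.3, 9.26, 12.6, 7.84 and 20.2 in Chat+ against 4.96, 5.88, 2.43, 15.0 and 6.48 CPM in Chat-. Every Chat+ library lay above 4 of the 5 Chat- libraries. Without the other, Chat- replicate 4, the groups were free of overlap for 3.29% of all genes. Nrp2 did not pass over all genes (limma log2 difference 0.99 ± 0.42, SE, unadjusted p = 0.035, adjusted p = 0.999), nor without Chat- replicate 4 (1.32, adjusted p = 0.214). Kdr, the main VEGF-A receptor of endothelium, was highest in Chat- replicate 4 at 8.36 CPM and had 0.2 to 5.38 CPM in the others, with a limma log2 difference of 0.69 over all libraries and 1.32 without that library (adjusted p = 0.999 and 0.707). Nrp1, another coreceptor, had 1.23 ± 1.81 against 1.19 ± 1.8 CPM. Its limma log2 difference turned from -0.22 to 0.41 without that library (adjusted p = 0.999 and 0.958). In that set of libraries the stromal and macrophage sums were also higher on average in Chat+. Their part in the differences of Nrp2, Kdr and Nrp1 was not tested.

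Il18, the inflammasome cytokine, was low in both groups, which overlapped. Chat+ replicates 1 to 5 had 5.76, 6.13, 6, 3.83 and 5.31 CPM, and Chat- replicates had 6.07, 4.38, 5.14, 9.01 and 4.19 CPM. Chat- replicate 4 was again the highest. The fold was 0.965 with a 95% confidence interval of 0.635 to 1.47 over all libraries and 1.09 without that library (limma, adjusted p = 0.999 and 0.96). Il18 (ENSMUSG00000039217) is found at 50554827 to 50581840 of chromosome 9, plus strand.

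Of the genes that cut, release, bind and read IL-18, 11 of 15 were measured and 0 passed, with 4 above and 7 below 0. Casp1, the caspase that cuts the precursor, had 70.0 ± 8.64 in Chat+ against 61.3 ± 4.5 CPM in Chat- (SD, n = 5). Gsdmd, the pore through which the cytokine leaves, had 68.4 ± 17.5 against 70.8 ± 24 CPM. Il18bp, a secreted decoy that neutralises IL-18, had 3.12 ± 1.24 against 2.06 ± 0.5 CPM. Traf6, an adaptor of the receptor, had 55.8 ± 4.8 against 65.1 ± 19 CPM, and the receptor gene Il18r1 0.559 ± 0.626 against 0.717 ± 0.754 CPM.

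For IL-10 and IL-15, whose own transcripts were not analysed here, the receptors and signalling genes were read. The IL-10 receptor chains Il10ra and Il10rb had 303 ± 46.6 against 321 ± 40.3 CPM and 106 ± 7.6 against 115 ± 5.97 CPM (SD, n = 5). Jak1, a kinase of this receptor, had 541 ± 53.0 against 563 ± 39.3 CPM. Stat3, which carries the signal to the nucleus, had 168 ± 12.1 against 162 ± 17.8 CPM. Among 11 measured genes of the IL-10 list 0 passed, with 6 above and 5 below 0. The smallest p belonged to Bhlhe41, a transcription factor of B-1a cells, whose 5 Chat+ libraries had 27.6 to 75.9 CPM and whose Chat- libraries had 11.1 to 24.0 CPM (limma adjusted p = 0.227, and 0.00878 with library quality weights, where it passed). Ahr, the aryl hydrocarbon receptor, a factor reported to promote Il10 in B cells, had 7.06, 4.06, 7.20, 5.18 and 7.36 in Chat+ against 2.6, 2.27, 2.04, 2.32 and 4.72 CPM in Chat-, and Chat- replicate 5 alone overlapped Chat+ (limma log2 difference 1.14 ± 0.32, SE, adjusted p = 0.49).

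Il15ra, which presents IL-15 to neighbouring cells, had 4.14 ± 1.02 in Chat+ against 3.71 ± 1.39 CPM in Chat- (SD, n = 5). Il2rg, the shared receptor chain, had 415 ± 40.4 against 450 ± 63.3 CPM, Jak3, its kinase, 87.3 ± 14.5 against 87.2 ± 19.6 CPM, and Stat5b 115 ± 15.8 against 117 ± 17.4 CPM. Of 8 measured genes of the IL-15 list 0 passed, with 5 above and 3 below 0. Cish, a feedback inhibitor induced by STAT5, had the largest log2 difference of all 91 partner genes, 1.87 ± 0.66 (limma SE, adjusted p = 0.918). Its levels were 6.79, 3.16, 1.78, 3.30 and 12.5 in Chat+ against 2.07, 0.645, 0.502, 0.511 and 4.31 CPM in Chat-. Replicate 5 was the highest library of each group, and the groups overlapped.

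**Figure D5:**
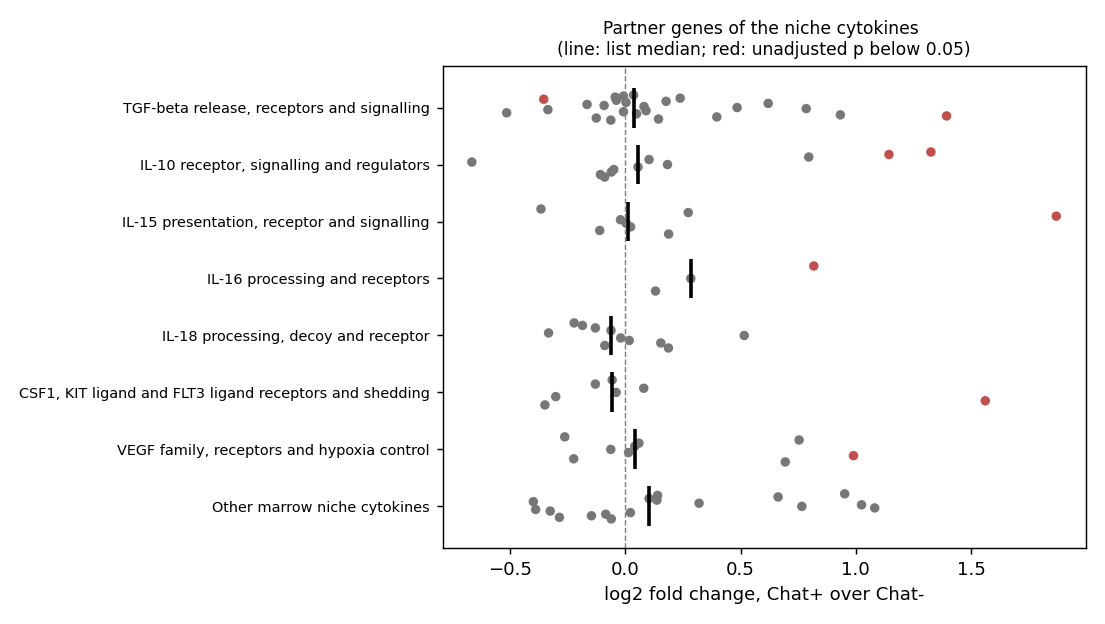
Limma log2 fold change of Chat+ over Chat- for the measured partner genes of the cytokines, by list, with the list median as a line and genes at an unadjusted p under 0.05 in red. The medians lie between -0.06 and 0.28, and 7 of the 8 red genes lie above 0. The lists were chosen with earlier results of these data known.

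Over all 91 partner genes, 0 passed the adjusted threshold, beside 0.00692% of all genes. At an unadjusted limma p under 0.05 there were 7 higher and 1 lower in Chat+, beside 3.49% and 1.01% of all genes. The groups did not overlap for 2 of the 91, Bhlhe41 and Cd9, both higher in Chat+, beside 1.12% of all genes. The median log2 difference was 0.02 over the 91 genes and 0.04 over all genes. The lists were chosen with earlier results of these data known, so their counts beside the shares of all genes only describe them.

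Other cytokines of the niche gave 17 measured genes of 40, of which 0 passed (10 above and 7 below 0). Ltb, the lymphotoxin chain that organises stroma, had 568 ± 216 in Chat+ against 624 ± 202 CPM in Chat- (SD, n = 5). Hmgb1, a nuclear protein that acts as an alarm signal outside the cell, had 332 ± 24.1 against 310 ± 32.8 CPM. Clcf1, a cytokine of the IL-6 family that stimulates B cells, had 155 ± 50.1 against 196 ± 42.1 CPM. Wnt10b and Ebi3, a Wnt ligand and a subunit of IL-27 and IL-35, had 6.95 ± 2.57 against 4.12 ± 2.19 CPM and 6.99 ± 0.849 against 5.55 ± 0.38 CPM, with the smallest p of this list (limma adjusted p = 0.999 each).

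The genes whose log2 levels were most like those of each cytokine were sought among 9501 protein-coding genes with a mean of at least 5 CPM, over the 10 libraries after centring each group. The correlations describe these libraries, which share depth and composition differences between genes. Each r is the highest found among 9501 genes over only 10 libraries, so a high value can arise from the search alone. Whether any r exceeds what such a search gives was not tested. Vegfa was most like Cd52 and Timp2 (r = 0.982 and 0.973, and 0.925 and 0.882 without Chat- replicate 4). Vegfb was most like Pex14 and Crb3 (r = 0.988 and 0.972), Flt3l like Ccdc138 and Brms1l (0.981 and 0.977), and Il18 like Krt5 and 1600012H06Rik (0.946 and 0.936). Il16 was most like Ubr7 and Il9r (r = 0.938 and 0.926), Kitl like Kat2b and Rnaseh2b (0.921 and 0.91), Tgfb1 like Trap1 and Zkscan5 (0.9 and 0.899) and Csf1 like Hacd2 and Actr10 (0.892 and 0.87, and 0.768 and 0.728 without that library). Between the cytokines, Vegfa and Il18 had the highest r, 0.885 (0.726 without Chat- replicate 4). Vegfa and Vegfb had r = -0.732 over 10 libraries and 0.07 without that library, so their opposite course rested on it.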

How the data were processed

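Sorted cells gave column-purified total RNA and directional libraries, per the labels' protocols. The submitters' processing notes name cutadapt 2.6, Salmon 0.14.2 and GRCm38.p6. The annotation is not given in the sources used here, nor is the strand setting or any gene filter.

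The deposited values are log2 values. Every library shares the lowest value, -3.1228, and after removing this offset (0.115 CPM) each sums to 1000000 CPM within 1 CPM. CPM is relative to each library's total, with no further scaling. Depth, estimated from the step between low values, was 21510000 to 30050000 reads per library. Since 43.6% to 50.4% of the values under 1 CPM were whole reads (within 0.02), whole reads were not recovered and no count model gave the main results. Reads estimated from depth served for limma-voom and to describe Kitl.

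limma 3.58.1 in R 4.3.3 (lmFit, eBayes with trend, group only, two-sided, Benjamini-Hochberg over 14450 genes, threshold 0.05) was run on the log2 values as deposited and checked on simulated data. A fold change refers to log2 of CPM plus the offset and so understates changes of low genes. Marker sums and the Vegfa share were compared with exact permutation tests. Named were all cytokines, their receptors and, of each partner list, the 3 highest genes and the 2 with the smallest p; of marker lists, the highest gene. A gene that this rule names is not reported here. Members and lists were chosen with earlier results of these data known. Symbols matched 14374 identifiers. Lengths, coordinates and shared words came from GENCODE M21, promoters from RefSeq GRCm38.p6. Python 3.11.15, numpy 2.4.6, pandas 2.3.3 and matplotlib 3.10.9 made the tables and figures. Alternatives were a replicate block, quality weights, TMM scaling, no trend, a pseudocount of 1 CPM, a filter at 1 CPM, limma-voom and leaving out each library.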

Additional observations from a re-analysis of the deposited data

Results flagged for a closer look

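Libraries far from the others of their group were sought for the cytokines, the named partners, the marker sums and the Vegfa share, in 124 groups of 5, of which chance marks about 5%. There were 19, and 14 of them were Chat- replicate 4, which was the highest of the 10 libraries for 22.1% of all genes and 23 of the 91 partner genes and the lowest for 31.6% and 22.

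Of the cytokines, Vegfa stood apart in Chat- replicate 4, at 9.71 CPM where the next Chat- library had 2.21 CPM. Its share of the VEGF sum in CPM, not corrected for length, was 63.5% there, against 18.6% in the next. In the same library the stromal sum was 382 CPM (next 47.2), the monocyte and macrophage sum 239 CPM (next 66.0) and Csf1r 26.8 CPM (next 2.46). The vascular receptor genes Kdr and Nrp1 had 8.36 CPM (next 2.15) and 4.41 CPM (next 0.458), and Hif1a had 168 CPM (next 104). Ltbp2, at 1.95 CPM, Kit, at 1.11 CPM, Il2rg, at 559 CPM, Traf6, at 98.8 CPM, and Tgfbr1, at 59.4 CPM, were also far above the other Chat- libraries, while Jak3, at 53.1 CPM, was far below.

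In other libraries, Chat+ replicate 5 was far above its group for Adam10 (190 CPM) and the mast cell and progenitor sum (353 CPM) and below it for Rhbdf2 (97.7 CPM). Chat+ replicate 3 had 4.37 CPM of Nrp1, with 1.2 CPM in the next library. Ahr stood at 4.72 CPM in Chat- replicate 5, the library that alone overlapped Chat+.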

How the results depend on the processing

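The count of cytokines past the threshold was 0 under the 17 other settings of the limma test. Kitl fell below the filter at a mean of 1 CPM and was not tested in that setting. Adjusted p ran from 0.479 to 1 for Vegfa, whose log2 difference stayed above 0 (0.27 to 0.92), and from 0.545 to 1 for Tgfb1, which stayed below 0 (-0.15 to -0.09). Some directions turned. Il16 was at 0.008 without Chat- replicate 3, and Flt3l at -0.02 without Chat+ replicate 1 and -0.11 without Chat- replicate 5 (range without 1 library -0.11 to 0.214). Il18 was at 0.026 with quality weights, 0.06 without Chat+ replicate 4 and 0.12 without Chat- replicate 4, and Csf1, at -0.443 over all libraries, at 0.041 with quality weights. Of the partner genes, some also changed sign when a library was left out, with these ranges of the log2 difference: Tgfbr2 (-0.147 to 0.003), Nrros (-0.079 to 0.028), Skil (-0.078 to 0.011), Stat5b (-0.113 to 0.041), Jak3 (-0.147 to 0.092), Cd4 (-0.177 to 0.722), Gsdmd (-0.199 to 0.156), Adam10 (-0.141 to 0.057), Rhbdf2 (-0.092 to 0.001), Hif1a (-0.086 to 0.171), Ltb (-0.416 to 0.037), Il18r1 (-0.803 to 0.177), Csf1r (-0.731 to 0.372) and Nrp1 (-0.913 to 0.414). Jak3 was also at -0.058 with quality weights and -0.014 with TMM scaling, Adam10 at 0.047 with quality weights and Hif1a at -0.023 with TMM scaling. The cause was not tested.

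With the replicate number as a block, 1 partner gene passed, Bhlhe41 (log2 1.33, limma adjusted p = 0.0416), and with quality weights the same gene (adjusted p = 0.00878). Over all genes, 6 passed with the replicate block, 105 with quality weights, 3 without the trend and 0 with limma-voom (652 at an unadjusted p under 0.05), against 1. Leaving out a library gave 1 to 6, with 6 each without Chat+ replicate 5 or Chat- replicate 4 and 2 each without Chat- replicate 1 or 3. Libraries of the same number correlated by -0.202 to 0.226 and 3 of 5 matched their own number best. This does not settle whether the numbers pair samples, and the main fit used the group only. The difference in Vegfa share ran from -3.89 to 9.36 percentage points (1.11 without Chat+ replicate 1, 0.396 without Chat+ replicate 4 and 9.36 without Chat- replicate 4, all turned from -0.709) and was -0.709 with the replicate block (exact sign-flip p = 0.94). The marker list count was 0 in each setting, but a single list could not have passed, since the smallest exact p gives an adjusted p of 0.087 over 11 lists. By the mean of log2 values, the plasma cell list had an exact permutation p of 0.0079 and the mast cell and progenitor list 0.59. TMM scaling moved the median of all genes from 0.036 to -5e-04 (log2). Kitl had the fewest estimated reads of the cytokines, at 2 to 30 per library.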
